A study of Mus musculus with 4 samples.

Results

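The 87 genes described here encode the cytosolic ribosomal proteins of the mouse, taken as every row whose symbol starts with Rpl or Rps and a digit, with Rplp0, Rplp1, Rplp2 and Rpsa added and with pseudogene rows (symbols with -ps) and the Rps6k kinases left out. They are 87 of the 27998 genes in the files, 34 with small-subunit and 53 with large-subunit names. The RNA came from cerebellar tumours of 4 littermate mice of the genotype Atoh1-cre:SmoM2 at postnatal day 20, in which Cre driven by the Atoh1 promoter switches on an active Smoothened allele in granule neuron precursors, and medulloblastoma of the SHH subgroup forms. Each mouse gave 1 library of single cells (10x Genomics, 3′ ends), all mice carried both alleles and no untreated or normal cerebellum was used here, so all comparisons are between cells of the same tumours. Cells were freed with Accutase and sorted with 7-AAD for living cells, which can set the shares of cell classes.

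Ribosomal proteins are the protein part of the small (Rps) and large (Rpl) ribosomal subunits, which with the ribosomal RNAs translate the messages of the cell. Their own messages are among the most abundant, and many start with a run of pyrimidines, the TOP motif, through which mTOR signalling controls their translation. Several of the genes have paralogs: Rps27l is a known p53 target, Rpl22l1 is held down by Rpl22 in mouse cells, and Rpl39l is best known from the testis. Granule neuron precursors divide under Sonic hedgehog signalling.

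Of 5670 barcodes, 4137 cells were kept, 1368, 888, 710 and 1171 from mice 1 to 4, with at least 500 genes detected and no more than 10% mitochondrial UMIs, while the series' design text gives 4749 cells. Their median depth was 2088.5, 2356, 1733 and 2567 UMIs, the libraries held between 1679285 and 3801197 UMIs, and 20 barcodes occurred in more than 1 library. Clusters drawn without the ribosomal protein genes gave 3314 progenitor-like, 479 differentiating granule-like, 116 astroglia-like, 147 oligodendrocyte-lineage-like and 39 myeloid-like cells, with 5 choroid-plexus-like and 37 unnamed cells not compared. The progenitor-like and differentiating classes together are called granule-lineage-like, and progenitor-like is the class of clusters that took no other name. Of the 582 cells in 1 progenitor-like cluster, 317 came from mouse 3. Summed oligodendrocyte-lineage markers stood at 95.9 UMIs per 10000 in the class of that name against 4.08 in progenitor-like cells, summed astroglia markers at 137 in astroglia-like cells against 7.90, and summed markers of differentiating granule cells at 63.8 against 21.7. The progenitor list stood at 29.97 in progenitor-like and 28.6 in differentiating cells, so it did not separate these classes.

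The single-gene results turn on Rps27l and Rpl22l1, and their coding sequences are shown beside those of the parent genes Rps27 and Rpl22 from GENCODE M21 transcripts (GRCm38). Capitals mark each base that differs from the other gene of the pair or is not aligned to it. GENCODE places Rps27 at chr3:90212522-90213651 on the minus strand, Rps27l at chr9:66946086-66949516, Rpl22 at chr4:152325742-152334071 and Rpl22l1 at chr3:28805436-28807424, the last 3 on the plus strand, and the printed bases are joined coding exons. For the Rpl22 pair bases 1 to 240 are shown.
Rps27: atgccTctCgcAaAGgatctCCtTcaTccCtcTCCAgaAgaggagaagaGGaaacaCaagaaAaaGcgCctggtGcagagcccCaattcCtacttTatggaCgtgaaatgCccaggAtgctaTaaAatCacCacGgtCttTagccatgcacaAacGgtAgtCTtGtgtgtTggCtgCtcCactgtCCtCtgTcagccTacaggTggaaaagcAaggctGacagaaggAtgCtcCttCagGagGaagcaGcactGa
Rps27l: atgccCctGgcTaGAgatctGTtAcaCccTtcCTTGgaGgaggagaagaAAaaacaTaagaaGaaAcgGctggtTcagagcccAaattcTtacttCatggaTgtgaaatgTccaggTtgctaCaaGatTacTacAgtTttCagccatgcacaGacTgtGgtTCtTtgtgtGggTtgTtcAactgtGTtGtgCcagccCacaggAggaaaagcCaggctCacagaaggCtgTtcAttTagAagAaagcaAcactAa
Rpl22: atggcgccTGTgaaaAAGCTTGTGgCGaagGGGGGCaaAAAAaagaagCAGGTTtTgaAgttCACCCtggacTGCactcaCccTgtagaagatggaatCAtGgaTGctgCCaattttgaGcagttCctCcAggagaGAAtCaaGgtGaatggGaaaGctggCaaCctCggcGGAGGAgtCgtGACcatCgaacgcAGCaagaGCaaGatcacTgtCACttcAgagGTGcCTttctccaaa
Rpl22l1: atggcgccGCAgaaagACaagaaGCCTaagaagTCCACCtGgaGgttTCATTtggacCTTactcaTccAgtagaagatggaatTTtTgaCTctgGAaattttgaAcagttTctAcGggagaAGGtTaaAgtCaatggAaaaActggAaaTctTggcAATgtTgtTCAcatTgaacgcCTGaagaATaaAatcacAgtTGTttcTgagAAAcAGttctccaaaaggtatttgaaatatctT

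Both genes of the Rps27 pair have 255 coding bases for 84 amino acids, of which 194 bases (76.1%) are identical and 61 differ. The Rpl22 pair aligns over 369 bases with 259 identical (70.2%), and Rpl22 has 18 bases more. Closer pairs are Rpl36a with Rpl36al at 87.9% of 321 bases, Rpl39 with Rpl39l at 85.3% of 156 bases, and Rpl10 with Rpl10l at 84.8% of 645 bases. Rps27rt has the same 255 coding bases as Rps27, so the values of both are uncertain.

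The libraries read the 3′ ends of messages. Among 86 members with a coding transcript, 46 shared at least 50% of the 50-base stretches of their last 300 bases with a transcript of another gene. The shared part was 21.9% for Rps27l, 23.9% for Rpl22, 63.3% for Rpl22l1, 70.1% for Rpl36al and 100% for Rpl36a and Rps27, while Rps20, Rpl12, Rpl21, Rps24 and Rpsa shared none. Rpl10, Rpl9 and Rps12 had 1588, 1406 and 337 UMIs, fewer than the pseudogene rows Rpl10-ps3 (4041), Rpl9-ps6 (2658) and Rps12-ps3 (2447). Members with shared ends are uncertain, since the counting could split their reads, and the treatment of reads that match several genes is not given in the sources used here.

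Around the first transcribed base, RefSeq (GRCm38.p6) gives the following windows of 10 bases before and 20 bases from it, shown for 3 paralogs and their parents because the TOP motif lies there. Capitals mark the longest run of a C and at least 4 further pyrimidines that starts within 5 bases of the first base, and the windows of Rpl22, Rpl36a and Rpl36al hold none.
Rps27: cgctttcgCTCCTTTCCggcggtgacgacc
Rps27l: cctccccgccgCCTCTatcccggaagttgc
Rpl22: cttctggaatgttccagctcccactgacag
Rpl22l1: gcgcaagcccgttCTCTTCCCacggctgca
Rpl36a: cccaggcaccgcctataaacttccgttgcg
Rpl36al: ccgtcgctcaggttcagttccgacttccgc

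In the same order they lie at chr3:90213629-90213658 (minus strand), chr9:66946076-66946105, chr4:152324426-152324455, chr3:28805498-28805527, chrX:134585644-134585673 (plus strand) and chr12:69184048-69184077 (minus strand). Such a run, searched on the sense strand only, occurred in 30 of the 66 members that matched the RefSeq table (45.5%) and in 21.2% of its 27025 genes. The match is a description of letters near an annotated start. The Rpl22 window lies wholly before the GENCODE start of the gene at chr4:152325742, and that of Rpl22l1 wholly after chr3:28805436. Whether a run lies at the start of the transcripts whose coding bases are shown was therefore not tested for these genes.

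In the kept cells the 87 genes took 17.5% of all UMIs, and 18.3%, 17.4%, 17.1% and 17.1% in mice 1 to 4. Each gene had at least 1 UMI. Rps19, a small-subunit protein mutated in Diamond-Blackfan anaemia, had 61116 UMIs, the most of all members. Rpl13a had 53050, Rps27a, a fusion of ubiquitin and a small-subunit protein, 50049, and Rpl32 46616. The 5 members with the most UMIs made up 14.5% of the family's UMIs. Rpl39l and Rpl3l, the latter known from muscle, had 1 UMI each in all kept cells and Rpl10l had 20. Rpl39l had 0 UMIs in progenitor-like cells, which allows up to 3 counts of their 8646375 UMIs. These 3 genes did not pass the filter on low counts, and the other 84 passed it in each comparison. Rps19bp1, which binds Rps19 and is not itself a ribosomal protein, matches the rule and was kept in.

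The family's share of UMIs was lowest in oligodendrocyte-lineage-like cells. Progenitor-like cells spent 18.6%, 17.9%, 17.3% and 17.1% of their UMIs on the 87 genes in mice 1 to 4 (17.7% ± 0.650, SD, n = 4), and differentiating granule-like cells 16.3%, 16.9%, 16.6% and 17.5% (16.8% ± 0.512). Oligodendrocyte-lineage-like cells were at 11.5%, 8.94%, 12.9% and 12.8% (11.5% ± 1.84), below every value of the granule lineage. Myeloid-like cells, 5 to 14 per mouse, were at 15.8%, 15.6%, 16.1% and 13.0% (15.1% ± 1.45). Summed neutrophil markers stood at 252 UMIs per 10000 in this class beside 398 for the myeloid list, so it may mix kinds of cell. Astroglia-like cells were at 18.9%, 18.1%, 15.01% and 18.5%, and mouse 3, with 8 such cells, was left out of the astroglia tests.

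**Figure D1:**
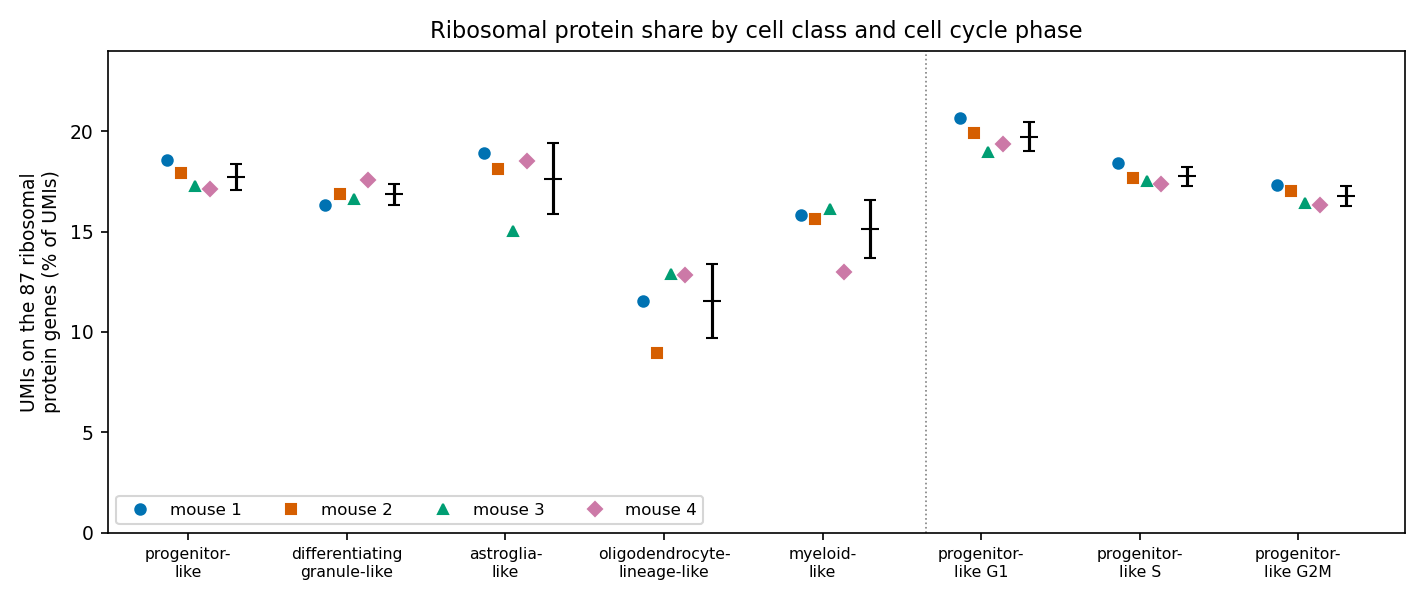
Percent of UMIs on the 87 ribosomal protein genes (y axis) for each cell class and, right of the dotted line, each cell cycle phase call of progenitor-like cells, with 1 point per mouse and the mean ± SD over mice as a black bar. Oligodendrocyte-lineage-like cells sit between 8.94% and 12.9%, and G1 sits above S and G2M in each mouse.

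Each difference in share was tested by an exact two-sided sign-flip permutation test over mice. When 4 of 4 mice move one way its p is the smallest the test can give, here 0.167 after Benjamini-Hochberg adjustment over the 8 such tests made, so no difference could pass 0.05. Oligodendrocyte-lineage-like cells differed from granule-lineage-like cells by -6.11 percentage points (SD 2.18, lower in 4 of 4 mice, exact adjusted p = 0.167). Myeloid-like cells differed by -2.51 points (SD 1.27, lower in 4 of 4 mice, exact adjusted p = 0.167). Differentiating granule-like cells differed from progenitor-like cells by -0.871 points (SD 1.08, lower in 3 of 4 mice, exact adjusted p = 0.250), less than the spread between mice. Astroglia-like cells differed by 0.724 points (SD 0.546, higher in 3 of 3 mice, exact adjusted p = 0.250).

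Within granule-lineage-like cells the family's share was lower where the level of Malat1, a long noncoding RNA kept in the nucleus, was higher. Cells with under 30 Malat1 UMIs per 10000 made up 19.3% of progenitor-like, 34.9% of differentiating, 65.5% of astroglia-like, 43.6% of myeloid-like and 11.6% of oligodendrocyte-lineage-like cells. Among granule-lineage-like cells, those under 30 spent 20.7%, 22.4%, 22.7% and 21.0% of their UMIs on the family in mice 1 to 4, 4.55 points more than the rest (SD 1.37, 4 of 4 mice, exact adjusted p = 0.167). They were shallower, at a median of 1166 UMIs. Among cells with at least 1000 UMIs, each thinned to 1000, the difference was 4.87 points. Thinning leaves a cell's expected share unchanged, so an effect of depth on the share was not tested. Over single granule-lineage-like cells, the share and the number of UMIs had Spearman correlations of -0.046, -0.110, -0.088 and -0.105 in mice 1 to 4. With rising Malat1 the mean share over mice went from 21.7% through 18.4%, 17.8%, 17.2% and 16.9% to 15.5%. Mice 2, 3 and 4 fell at each step. In mouse 1 the bins between 30 and 240 showed no steady fall, at 18.4%, 18.1%, 18.2% and 18.4%.

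**Figure D2:**
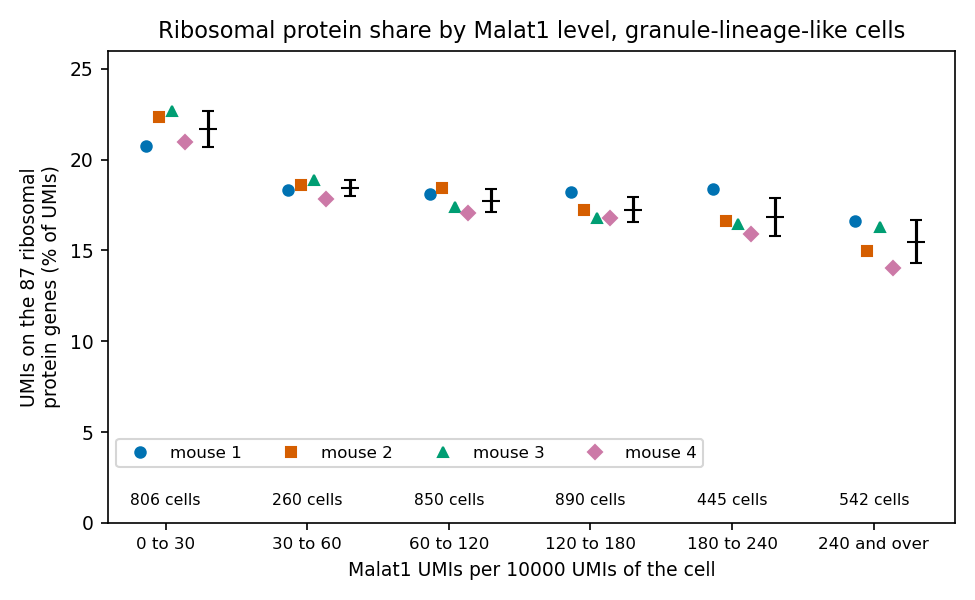
Percent of UMIs on the 87 ribosomal protein genes (y axis) in granule-lineage-like cells binned by Malat1 UMIs per 10000 (x axis), with 1 point per mouse, the mean ± SD over mice as a black bar and the number of cells in each bin. The bin under 30 has a mean of 21.7% and lies above the other bins in each mouse, and the bin of 240 and over has the lowest mean, 15.5%.

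Without the low-Malat1 cells the differentiating class differed from progenitor-like cells by -1.998 points and was lower in 4 of 4 mice. It was also lower in 4 of 4 mice at 5% mitochondrial UMIs (-1.68 points), with cell cycle scores regressed out (-2.14) and at Leiden resolution 2 (-2.46). With at least 1000 genes per cell (-0.899 points) and when thinned (-0.987) it was lower in 3 of 4. With low-Malat1 cells left out of both classes, the astroglia-like difference was -0.0549 points over 2 mice that went opposite ways. The oligodendrocyte-lineage-like difference was about as large without them, at -5.91 points, and lower in 4 of 4 mice. Within that class, 1 cluster of 97 cells had a family share of 8.76% and 894 Malat1 UMIs per 10000, while clusters of 26 and 24 cells had 15.01% and 14.5%, and 21 of those 24 cells came from mouse 4. With Malat1 taken out of the total, the class still differed by -5.64 points.

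Mitochondrial UMIs, a sign of RNA quality, also differed between the classes. They made up 5.39% of UMIs in oligodendrocyte-lineage-like, 4.72% in astroglia-like, 4.17% in differentiating, 3.20% in progenitor-like and 2.02% in myeloid-like cells, and barcodes left out for more than 10% had a family share of 12.5%. With cells of at most 5% mitochondrial UMIs the oligodendrocyte-lineage-like difference was -4.27 points, lower in 2 of the 2 mice left, and over UMIs outside mitochondrial genes it was -6.05 points in 4 of 4 mice. The astroglia-like difference was -0.157 points at that limit.

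Single genes were tested with edgeR on UMIs summed per mouse and class, first as levels and then as departures from the family. A departure is the log2 change in a gene's share of the family's UMIs, so a gene that moves with the others has a departure near 0. Called means an adjusted p under 0.05 over all genes tested, and the standard error (SE) beside a log2 value comes from the fit.

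In oligodendrocyte-lineage-like cells 75 of 84 tested members fell and none rose, where 10.9% of all 7517 tested genes were lower and 12.1% higher. The members' median log2 fold change was -0.70 and that of all genes -0.11. Both subunits took part: 31 of 34 Rps and 44 of 50 Rpl genes fell. Rps20, a protein of the small subunit's head, had a log2 fold change of -0.75 (SE 0.16, adjusted p = 5.78e-05), and Rpl22l1 of -0.54 (SE 0.17, adjusted p = 0.0102). The Rpl22l1 call was lost in 7 of 14 alternatives, among them DESeq2, no block, without mouse 1 and without mouse 2, with an adjusted p of up to 0.855. With at most 5% mitochondrial UMIs, which left 2 mice, 1 member was called, and with at least 1000 genes per cell 34 were.

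Rps27l was not called by level in this class, with a log2 fold change of -0.21 (SE 0.17, adjusted p = 0.428). Per 1000 family UMIs it had 4.00, 5.73, 7.48 and 5.56 in oligodendrocyte-lineage-like cells of mice 1 to 4 and 3.59, 3.89, 4.45 and 4.22 in granule-lineage-like cells. It was higher in each mouse, though the ranges overlapped, and the departure was 0.47 (SE 0.16, adjusted p = 0.0187). Rpl13, a large-subunit protein with 83.3% of its 3′ end shared, was the only other departing member, with 24.9, 30.6, 27.8 and 23.4 against 22.6, 22.1, 20.3 and 20.4 and a departure of 0.31 (SE 0.11, adjusted p = 0.0154). On this scale 24.9% of all genes were higher. The library size used here centres the members near 0 (median 0.001), while all genes had a median of 0.56. The count of 2 of 84 can therefore not be weighed against that share. Both calls were lost without mouse 3, without mouse 4, at 5% mitochondrial UMIs and with cell cycle scores regressed out, that of Rps27l also when thinned and that of Rpl13 also without mouse 2 and without the block.

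**Figure D3:**
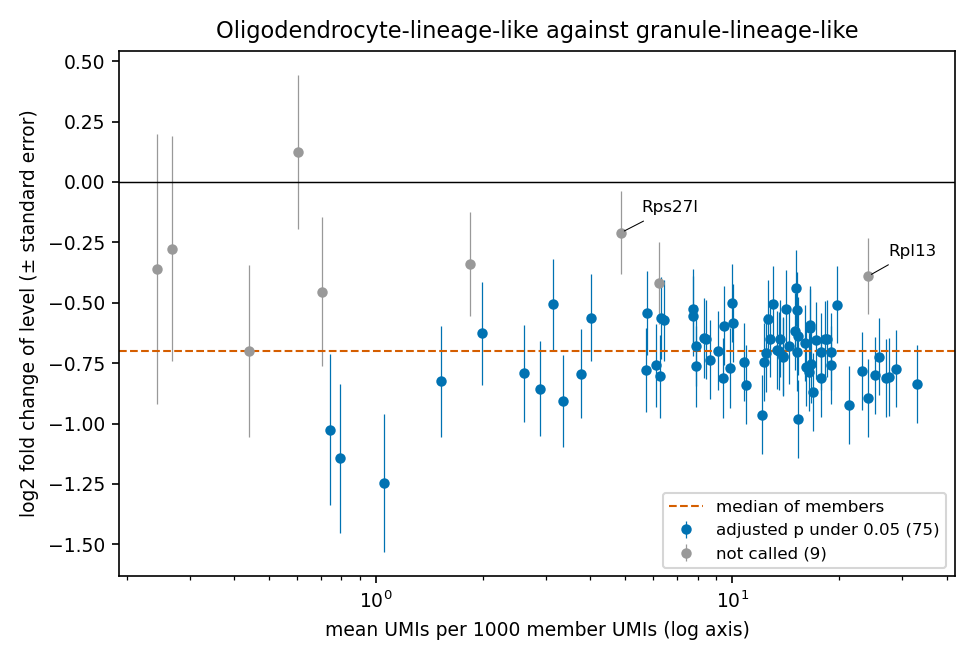
Log2 fold change of level ± standard error (y axis) of the 84 tested members in oligodendrocyte-lineage-like against granule-lineage-like cells, by their mean number per 1000 family UMIs (x axis, log scale). The members lie around a median of -0.70, and Rps27l, at -0.21, is among the 9 that were not called.

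Of 37 translation factors 20 fell and none rose in the same class (median -0.55), where 10.9% of all genes were lower, among them Eef1b2, an exchange factor of elongation, at -0.98 (SE 0.18, adjusted p = 1.35e-06), and Eif3f, a subunit of initiation factor eIF3, at -0.93 (SE 0.19, adjusted p = 1.25e-05). Of 43 tested ribosome biogenesis genes 7 fell (median -0.39), among them the nucleolar chaperone Npm1 at -0.91 (SE 0.16, adjusted p = 7.20e-07) and Fbl, the methyltransferase of ribosomal RNA, at -0.79 (SE 0.20, adjusted p = 0.000916). Both of these calls were lost at 5% mitochondrial UMIs, and that of Fbl also with at least 1000 genes per cell. Of 76 mitochondrial ribosomal protein genes 6 fell (median -0.23), a smaller share than among all genes. Gnb2l1, the small-subunit scaffold protein also known as Rack1, which the naming rule leaves out, fell too, at -0.58 (SE 0.17, adjusted p = 0.00473), a call lost without mouse 1 and at 5% mitochondrial UMIs. Of 10 tested p53 targets 2 rose, Phlda3 and Zmat3, and Btg2 fell, and all 3 calls were lost without mouse 2.

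Differentiating granule-like cells showed few single-gene changes against progenitor-like cells. By level 1 of 84 members was called, Rps20, where 8.29% of all 7501 tested genes were lower and 8.97% higher. Per 1000 family UMIs Rps20 had 9.94, 9.42, 7.98 and 10.4 in differentiating cells of mice 1 to 4 and 11.0, 10.5, 11.0 and 11.8 in progenitor-like cells, with no overlap. Its level changed by -0.24 (SE 0.08, adjusted p = 0.0262) and its departure was -0.22 (SE 0.06, adjusted p = 0.00545). The level call was lost with DESeq2, with at least 1000 genes per cell and without mouse 1, 2 or 3, and the departure call without mouse 3.

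Against the family 3 members rose and 2 fell, where 8.16% of all genes were higher and 7.2% lower. Rpl38, a large-subunit protein whose loss in mice changes the translation of Hox messages, had 9.27, 11.99, 11.3 and 12.2 per 1000 against 7.61, 10.5, 9.83 and 10.1, higher in each mouse, and departed by 0.24 (SE 0.06, adjusted p = 0.00140). Rpl37 departed by 0.17 (SE 0.06, adjusted p = 0.0162). Rplp1, a stalk protein that recruits elongation factors, departed by -0.20 (SE 0.08, adjusted p = 0.0490). Without low-Malat1 cells Rpl38 and Rps20 were still called, and Rpl37 and Rplp1 were not. The Rplp1 call was lost in 11 of 12 alternatives, without mouse 2, 3 or 4 among them, the Rpl37 call in 7, without mouse 2 or 4 among them, and the Rpl38 call without the block and at Leiden resolution 2.

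The count of members lower by level depended on which cells were used. It was 38 of 84 without the low-Malat1 cells, 69 at Leiden resolution 2 and 32 at 5% mitochondrial UMIs, with none higher in each case. Of the differentiating cells, 200 formed a cluster whose family share was 21.2%, with 23.98 UMIs of Malat1 per 10000, and the other 279 formed one at 14.9% with 230. Of 43 ribosome biogenesis genes 11 fell and none rose (median -0.25 against -0.01 for all genes, of which 8.29% were lower and 8.97% higher), among them Dkc1, the pseudouridine synthase of ribosomal RNA, at -0.70 (SE 0.16, adjusted p = 0.000272). Of 37 translation factors 1 rose, the helicase Eif4a2, at 0.72 (SE 0.14, adjusted p = 8.65e-06), and 4 fell, among them Eef1d at -0.61 (SE 0.13, adjusted p = 3.56e-05). The Eef1d call was lost when thinned. Of 76 mitochondrial ribosomal protein genes 2 rose and 2 fell, smaller shares than among all genes. Of 9 p53 targets 1 rose, Bbc3, and its call was lost without mouse 4 and with DESeq2.

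In astroglia-like cells no member was called by level or against the family, where 3.41% and 3.97% of all 8478 tested genes were called in either direction. By edgeR 3 members had an unadjusted p under 0.05 by level and 4 by departure, and DESeq2 called 0 by level. The members' median was 0.07 and that of all genes -0.16. Rps27l had 3.77, 3.35 and 4.13 per 1000 family UMIs in mice 1, 2 and 4, against 3.59, 3.89 and 4.22, and the ranges overlapped. At Leiden resolution 2, 11 members were higher by level. Of the other lists only Pabpc1, the cytoplasmic poly(A)-binding protein, was called, at -0.46 (SE 0.15, adjusted p = 0.0487), and that call was lost in 11 of 13 alternatives, among them DESeq2, no block and without each mouse in turn.

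Within progenitor-like cells the family's share was highest in cells called G1. Cells called G1 (747) spent 20.6%, 19.9%, 19.0% and 19.3% on the family in mice 1 to 4, cells called S (1242) 18.4%, 17.7%, 17.5% and 17.4%, and cells called G2M (1325) 17.3%, 17.0%, 16.4% and 16.3%. G1 was highest and G2M lowest in each mouse. The difference from G1 was -1.97 points in S (SD 0.358, 4 of 4 mice, exact adjusted p = 0.167) and -2.95 points in G2M (SD 0.330, 4 of 4 mice, exact adjusted p = 0.167), and both comparisons share the G1 cells. The calls rest on scores of gene lists, and 485 cells lay within 0.05 of a boundary. Low-Malat1 cells made up 8.17%, 17.0% and 27.7% of the 3 phases, and without them the differences were -2.11 and -3.36 points. Median depth was 2098, 2338 and 2184 UMIs. Among cells with at least 1000 UMIs, each thinned to 1000, the differences were -1.77 and -2.61 points. An effect of depth on the share was not tested.

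Most members fell in both phases. In S 53 of 84 fell and none rose, where 6.71% of all 6509 genes were lower and 9.69% higher, with a median of -0.15 over members and -0.02 over all genes. In G2M 65 of 84 fell and none rose, where 10.1% of all 6635 genes were lower and 12.5% higher, with a median of -0.20 over members and -0.03 over all genes. Both subunits took part, with 21 Rps and 32 Rpl genes in S and 27 and 38 in G2M. Without the mouse as a block the counts were 1 in S and 6 in G2M, and with DESeq2 31 and 38.

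Of the 6 paralogs that could be tested (Rps27l, Rpl22l1, Rpl36al, Rpl7l1, Rps27rt and Rpl6l), 3 departed in S and 2 in G2M, each upward. In S 9 members in all were higher against the family and 6 lower, where 18.1% of all genes were higher and 2.37% lower. In G2M 6 were higher and 5 lower, where 24.2% of all genes were higher and 3.36% lower. All genes had a median of 0.14 in S and 0.18 in G2M on this scale, while its library size centres the members near 0. The members' counts can therefore not be weighed against the shares of all genes. Every one of these departure calls was lost without the mouse as a block.

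Rps27l had 2.99, 3.04, 4.598 and 3.99 UMIs per 1000 family UMIs in G1 of mice 1 to 4, 3.95, 4.24, 4.70 and 4.16 in S and 3.85, 4.14, 4.29 and 4.45 in G2M. S exceeded G1 in 4 of 4 mice and G2M in 3 of 4, with mouse 3 the exception. The departure was 0.27 (SE 0.06, adjusted p = 5.34e-05) in S and 0.24 (SE 0.06, adjusted p = 0.00130) in G2M. Its level per 10000 UMIs was not called in either phase, with log2 fold changes of 0.11 (SE 0.06, adjusted p = 0.204) in S and 0.04 (SE 0.06, adjusted p = 0.691) in G2M. The G2M departure was also lost without mouse 1, without mouse 2 and when thinned.

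Rpl22l1 had 5.86, 6.43, 3.29 and 4.44 per 1000 in G1, 6.24, 7.14, 3.46 and 5.39 in S and 6.31, 7.33, 3.799 and 5.996 in G2M. Each mouse was higher in S and in G2M than in G1, and mouse 3 was lowest in each phase. The departure was 0.15 (SE 0.05, adjusted p = 0.0144) in S and 0.22 (SE 0.05, adjusted p = 0.000441) in G2M. The level of Rpl22l1 was not called by edgeR in either phase. Its log2 fold changes were -0.008 (adjusted p = 0.945) in S and 0.02 (adjusted p = 0.854) in G2M. Its parent Rpl22 had 6.24 ± 0.291, 5.99 ± 0.496 and 6.05 ± 0.494 per 1000 in G1, S and G2M (SD, n = 4), and moved with the family: its level fell in both phases and its departure was not called. Both Rpl22l1 calls were lost without mouse 4, and the S call also without mouse 2 and when thinned.

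Rpl36al had 2.83, 2.93, 2.01 and 2.96 per 1000 in G1, 2.98, 3.44, 2.51 and 3.60 in S and 2.72, 3.39, 2.45 and 3.36 in G2M. It departed by 0.20 (SE 0.07, adjusted p = 0.0152) in S, higher in 4 of 4 mice, and was not called in G2M, at 0.12 (SE 0.07, adjusted p = 0.183). The S call was lost without mouse 2, without mouse 4 and without low-Malat1 cells. Its parent Rpl36a had 9.79 ± 0.361, 9.71 ± 0.548 and 9.84 ± 0.303 in G1, S and G2M. Rpl7l1, a paralog of Rpl7 with 1040 UMIs in progenitor-like cells, had 0.648 ± 0.108, 0.561 ± 0.205 and 0.744 ± 0.257, and Rps27, uncertain because of Rps27rt, had 1.20 ± 0.183, 1.12 ± 0.187 and 1.22 ± 0.182. Neither departed in either phase.

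**Figure D4:**
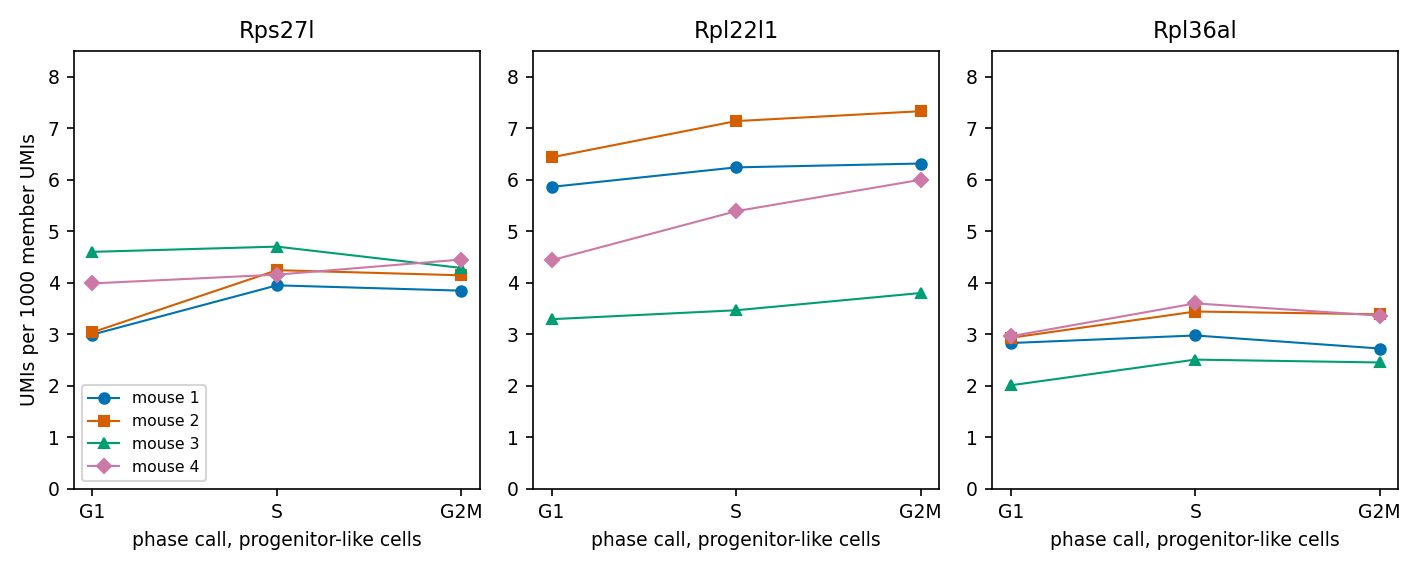
UMIs per 1000 family UMIs (y axis) of Rps27l, Rpl22l1 and Rpl36al in progenitor-like cells by phase call (x axis), with 1 line per mouse. Each of these 3 genes is higher in S than in G1 in each mouse.

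Other members departed as well. Rpl21, a large-subunit protein, had 7.33, 8.89, 7.60 and 8.42 per 1000 in G1, 8.33, 10.1, 7.87 and 8.66 in S and 8.38, 10.7, 8.31 and 9.39 in G2M, with departures of 0.13 (SE 0.04, adjusted p = 0.0137) and 0.19 (SE 0.05, adjusted p = 0.000247). Rpsa, a small-subunit protein also known as a laminin receptor, departed by 0.13 (SE 0.03, adjusted p = 0.000866) in S and 0.09 (SE 0.04, adjusted p = 0.0480) in G2M, where the call was lost in 8 of 11 alternatives, and Rps24, mutated in Diamond-Blackfan anaemia, by 0.09 and 0.12. Rplp1, Rpl14 and Rpl41 rose against the family in S. Rpl12, a protein at the base of the stalk, had 7.05, 5.86, 7.28 and 7.19 in G1, 6.16, 5.53, 6.46 and 6.34 in S and 5.87, 5.32, 6.55 and 6.80 in G2M, lower than G1 in each mouse, with departures of -0.16 (SE 0.05, adjusted p = 0.00308) and -0.16 (SE 0.05, adjusted p = 0.00634). Rpl17 fell against the family in both phases, Rpl36, Rpl34 and Rpl32 in S, and Rpl38 and Rps18 in G2M. Leaving out 1 mouse ended each of these calls in G2M except that of Rpl21, which was lost when thinned, and in S those of Rpl12, Rpl14, Rpl21, Rpl32, Rpl34 and Rpl36. For the S calls of Rplp1, Rpl41 and Rps24 the result of leaving out 1 mouse is not reported here. Rps20 was called in neither, at 0.08 (SE 0.04, adjusted p = 0.128) and 0.06 (SE 0.04, adjusted p = 0.322).

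**Figure D5:**
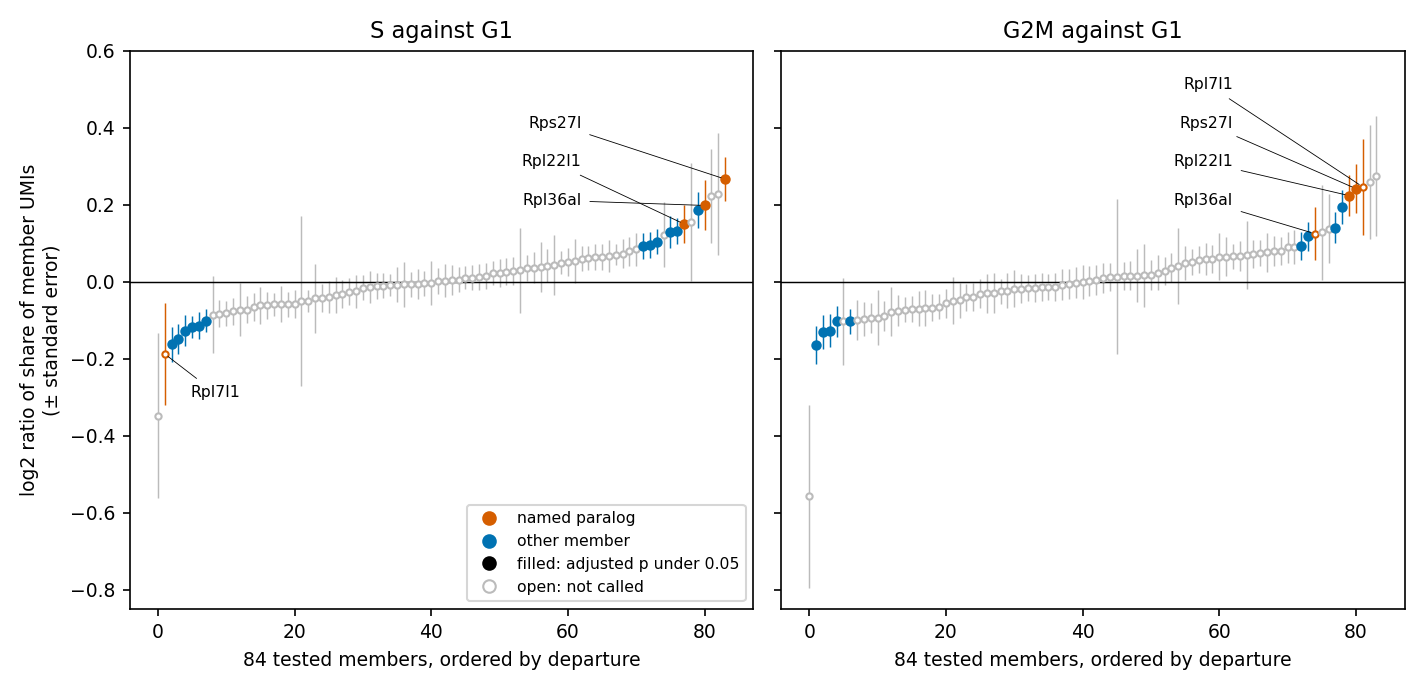
Departure from the family (log2 ratio of a gene's share of the family's UMIs, ± standard error, y axis) of the 84 tested members in rising order (x axis), in S and in G2M against G1, with called members filled and named paralogs in orange. Rps27l is the highest called member in both phases, at 0.27 in S and 0.24 in G2M, and Rpl12 the lowest called one, at -0.16 and -0.16.

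Of the other genes of the pathway, 6 of 43 ribosome biogenesis genes rose in S and 1 fell, where 9.69% of all genes were higher and 6.71% lower, with Nop56, a core protein of box C/D particles, at 0.45 (SE 0.09, adjusted p = 1.46e-05) and Nob1, a nuclease of late small-subunit maturation, at -0.49 (SE 0.16, adjusted p = 0.0169). In G2M 6 fell and none rose, where 10.1% of all genes were lower and 12.5% higher, among them Npm1 at -0.15 (SE 0.04, adjusted p = 0.00494). The Nob1 and Npm1 calls were lost without mouse 1, without mouse 2 and with DESeq2, and the Nop56 call without the block and when thinned. Of 37 translation factors 6 rose and 9 fell in S, and 4 rose and 10 fell in G2M, where the cap-binding protein Eif4e was at 0.67 (SE 0.10, adjusted p = 1.16e-09) and Eif4b at -0.64 (SE 0.13, adjusted p = 1.43e-05). The Eif4b call was lost when thinned. Of 76 mitochondrial ribosomal protein genes 4 rose and none fell in S, with Mrpl18 at 0.79 (SE 0.10, adjusted p = 1.09e-14), and 5 rose and 2 fell in G2M, with Mrpl51 at 0.71 (SE 0.12, adjusted p = 6.45e-07), in each direction a smaller share than among all genes. Of 9 p53 targets 2 fell in S and 3 in G2M, among them the antiproliferative gene Btg2 at -1.03 and -1.44.

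Cdkn1a encodes p21, the cell cycle inhibitor induced by p53, and progenitor-like cells with at least 1 Cdkn1a UMI were set against those with none because Rps27l is a p53 target too. The 608 positive cells were deeper, at a median of 3081 UMIs against 2043.5. Their family share differed by -0.758 points (SD 0.104, lower in 4 of 4 mice, exact adjusted p = 0.167). The difference was -0.973 points among cells with at least 1000 UMIs, each thinned to 1000, and -0.464 points without low-Malat1 cells. An effect of depth on the share was not tested. By level 5 of 84 members fell, among them Rps26, Rpl37, Rps29 and Rps14, where 0.267% of all 7486 genes were lower. None of the 5 calls held with DESeq2, without the mouse as a block, when thinned or without low-Malat1 cells. Against the family edgeR called 0 members, where 2.15% of all genes were called in either direction, and 4 had an unadjusted p under 0.05. Rps27l had 3.87, 3.62, 5.14 and 4.24 per 1000 in positive cells of mice 1 to 4 and 3.61, 4.01, 4.22 and 4.27 in negative cells, higher in 2 mice and lower in 2. Its level changed by -0.03 (SE 0.05, adjusted p = 0.928), and 0 of 9 tested p53 targets were called, with 2 at an unadjusted p under 0.05.

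Across cell classes Rps27l had 7.21 ± 0.435 UMIs per 10000 in progenitor-like, 6.63 ± 2.29 in oligodendrocyte-lineage-like, 6.54 ± 1.05 in astroglia-like, 5.94 ± 0.977 in differentiating and 5.82 ± 2.16 in myeloid-like cells (SD, n = 4), and neighbours in that order did not differ beyond their spread. Rpl22l1 had 9.91 ± 2.81 in progenitor-like, 9.60 ± 3.24 in astroglia-like, 8.63 ± 3.40 in myeloid-like, 8.49 ± 1.24 in differentiating and 6.81 ± 1.90 in oligodendrocyte-lineage-like cells, again with overlapping neighbours. Rps20 had 19.6 ± 0.812 in progenitor-like, 18.5 ± 3.84 in astroglia-like, 15.9 ± 2.01 in differentiating, 12.5 ± 3.18 in oligodendrocyte-lineage-like and 12.2 ± 3.28 in myeloid-like cells.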

How the data were processed

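The files hold deposited UMI counts per gene and cell barcode for 4 libraries, made by the authors with Cell Ranger 2.0.2 on mm10, per the submitters' processing notes, which also name Seurat. The annotation release is not given in the sources used here. Cells with at least 500 genes and at most 10% mitochondrial counts were kept. No doublet caller was run, so doublets may remain. Clusters (scanpy 1.11.5, 2000 variable genes, 30 components, 15 neighbours, Leiden resolution 1) were drawn without the ribosomal protein genes. Mitochondrial, cell cycle, translation and p53 target genes, Malat1 and Cdkn1a were held out too. Classes outside the granule lineage were named where at least 3 markers stood at least 1 log2 unit above the rest. Their own markers also had to lead among the cluster's 10 top genes. A cluster was called differentiating where the median log2 difference of that marker list from all cells was at least 0.5 and above that of the progenitor list.

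For single genes, edgeR 4.0.16 was run on sums over the cells of each class in each mouse (quasi-likelihood test, TMM, filterByExpr, the mouse as a block, Benjamini-Hochberg over all genes). Departures used the family's summed UMIs as library size. A mouse entered with at least 10 cells in both classes (5 for myeloid-like cells). The scripts were tested on simulated data. Cells of the compared classes share their animal and library, which pairs the sums by mouse, and deviations of the same mouse correlated at 0.0428 to 0.54 over 23 pairs of groups. P-values cover the spread, over 4 littermates, of the difference between classes of the same mouse (3 mice for astroglia-like cells). Intervals and floors cover counting error only.

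The named members are Rps27l, Rps20, Rpl22l1 and Rpl39l, paralogs with at least 20 UMIs and their parents, up to 6 departing members in each direction of the same sign in each mouse, and the 5 with the most UMIs. Up to 3 genes per other list and comparison followed the same rule. Rps26, Rps29, Rpl31, Rps12, Rplp1 in S, Rpl10, Rpl9, and the level calls beside Cdkn1a were named after their values were seen. The members and lists were chosen with earlier results of these data known. Sequences came from GENCODE M21 transcripts (aligned with Biopython 1.88) and RefSeq. Values of some members that the rule names are not reported here.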

Additional observations from a re-analysis of the deposited data

Results flagged for a closer look

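Of 58 groups of 4 mice examined for a single mouse far from the others, 4 had one, where chance gives about 1 in 20. In myeloid-like cells the family's share was 12.98% in mouse 4, and the nearest of the other mice was at 15.63%. In progenitor-like cells called G1, Rpl36al had 2.0087 UMIs per 1000 family UMIs in mouse 3 against 2.8291 in the nearest mouse, and Rps27 had 0.92633 in mouse 4 against 1.2677. In cells called S, Rpl36a had 8.895 in mouse 3 against 9.9463 in the nearest mouse.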

How the results depend on the processing

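Alternatives changed one choice at a time. Those that leave low-Malat1 cells out of both classes, or Malat1 out of the total, were chosen after seeing the data. The astroglia-like share difference reversed to -0.1572 points at 5% mitochondrial UMIs and to -0.05485 points without low-Malat1 cells in both classes, and no other share difference changed direction. Without each mouse in turn the share differences ran from -1.3 to -0.425 points for differentiating, 0.4158 to 0.9359 for astroglia-like, -6.695 to -5.19 for oligodendrocyte-lineage-like and -2.969 to -1.948 for myeloid-like cells, from -3.082 to -2.819 in G2M and -2.143 to -1.886 in S.

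Without the replicate block the members called by level were 0 in differentiating cells (1 with the block), 6 in G2M (65), 1 in S (53) and 0 beside Cdkn1a (5). Departing members without the block were 0 in differentiating cells (5), 1 in oligodendrocyte-lineage-like cells (2), 0 in G2M (11) and 0 in S (15). DESeq2 called 0 in differentiating cells, 38 in G2M, 31 in S and 0 beside Cdkn1a.

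In differentiating cells the members called by level were 9 with no filter beyond 1 UMI, 0 with at least 1000 genes per cell, 32 at 5% mitochondrial UMIs, 38 with cell cycle scores regressed out, 69 at Leiden resolution 2 and 38 without low-Malat1 cells, and 0 to 12 without each mouse in turn. Departing members were 3 with no filter, 2 with at least 1000 genes, 3 at 5% mitochondrial UMIs, 3 with scores regressed out and 2 without low-Malat1 cells, and 2 to 6 without each mouse. In astroglia-like cells 1 was called with scores regressed out, 11 at Leiden resolution 2 and 1 without low-Malat1 granule-lineage cells, where 1 also departed. In oligodendrocyte-lineage-like cells 34 were called with at least 1000 genes and 1 at 5% mitochondrial UMIs, and 57 to 77 without each mouse. Departing members there were 0 at 5% mitochondrial UMIs and 0 with scores regressed out, and 0 to 2 without each mouse. In G2M 5 departed when thinned, and 4 to 12 without each mouse, and in S 8 to 16. Beside Cdkn1a 31 were called with no filter, 0 with at least 1000 genes, 0 at 5% mitochondrial UMIs, 0 when thinned and 0 without low-Malat1 cells, and 0 to 5 without each mouse. The cause of these shifts was not tested. Of 127 named gene values, 79 were called, and 0 of these 79 changed sign under any alternative run.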

Other observations

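Within granule-lineage-like cells a few members took another share of the family's UMIs in low-Malat1 cells, and these were chosen after their values were seen and were not tested. Rps26, a small-subunit protein at the messenger RNA exit channel, had 3.799, 5.97, 4.61 and 5.84 per 1000 family UMIs in low-Malat1 cells of mice 1 to 4 against 3.09, 4.54, 3.17 and 3.69 in the rest, higher in each mouse. Its 3′ end is shared with other genes over 62.5%, so its values are uncertain. Rps29 and Rpl31 were also higher there on average, at 21.12 against 18.01 and 10.3 against 8.96. Rps12, whose 3′ end is shared with other genes over 94.4%, had 0.0780 ± 0.0168 against 0.214 ± 0.0691 (SD, n = 4), lower in each mouse. These values rest on only 21 UMIs in low-Malat1 cells and 294 in the rest.

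The family's share was also taken in the barcodes left out of the comparisons. The 1050 barcodes with under 500 genes had 18.1% of their UMIs on the 87 genes, and the 483 with high mitochondrial shares had 12.5%, against 17.5% in the kept cells. The 16 pseudogene rows held 25179 UMIs in the kept cells, 0.244% of the total.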
